A study of Homo sapiens with 12 samples.

Results

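The metallothioneins are small cysteine-rich proteins, and 10 of their genes were taken here: MT2A, MT1A, MT1B, MT1E, MT1F, MT1G, MT1H, MT1M, MT1X and MT3. A gene was measured where a probe set of the array, the group of probes that reads 1 gene, was listed with its symbol alone in the platform annotation, and 9 of the 10 were measured, out of 18417 genes in all. MT1A was not analysed here. The genes were chosen by symbol, and of several probe sets of a gene 1 was selected on its mean level over all 12 arrays, the highest; this touched MT2A alone, with 3 probe sets, and used no difference between groups. A further 6 metallothionein genes and pseudogenes with a probe set of their own, MT4, MT1JP, MT1DP, MT1IP, MT1HL1 and MT1P3, were set beside them.

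The samples were cultures of A172, an adherent line from a human glioblastoma, harvested after 4 days and read on GeneChip Human Gene 1.0 ST arrays with 3 cultures in each of 4 groups. Clone 7 and clone 8 were stably transfected with a pcDNA3.1 vector that drives hHSS1, a secreted and membrane protein now named EMC10, with a histidine tag at its end. The mock line was stably transfected with the empty pcDNA3.1 vector, and wild-type cells were not transfected. Stable clones were kept in the antibiotic G-418. Each clone is 1 selected line and so is mock, so that the p-values measure the spread between cultures of these lines and not between independently made lines. One label field spells the cell line A712 where the titles write A172.

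Metallothioneins bind zinc and copper through their cysteines, buffer these metals in the cell, hold toxic metals such as cadmium, and react with oxidants. Their transcription is driven mainly by MTF1, a zinc-sensing transcription factor that binds short metal response elements in their promoters, and it also responds to glucocorticoids, oxidative stress and cytokines such as IL-6. In brain, MT2A and the MT1 genes are typical of astrocytes, while MT3 was first known as a growth inhibitory factor of neurons. The functional human genes lie in a row on the long arm of chromosome 16.

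Promoter sequences of 4 of the 10 members, MT2A, MT1B, MT1H and MT1X, were found in the RefSeq promoter table (assembly GRCh38.p14), and they are shown because the core of the metal response element recurs in each. Each sequence runs from 250 bases before to 50 after the annotated start of the gene, on the plus strand, 5′ to 3′. Capitals mark each match to the core TGCACNC or TGCGCNC on either strand, so that a match on the opposite strand reads GNGTGCA or GNGCGCA. MT2A lies at chr16:56608334-56608633, MT1B at chr16:56651636-56651935, MT1H at chr16:56669564-56669863 and MT1X at chr16:56682220-56682519.
MT2A: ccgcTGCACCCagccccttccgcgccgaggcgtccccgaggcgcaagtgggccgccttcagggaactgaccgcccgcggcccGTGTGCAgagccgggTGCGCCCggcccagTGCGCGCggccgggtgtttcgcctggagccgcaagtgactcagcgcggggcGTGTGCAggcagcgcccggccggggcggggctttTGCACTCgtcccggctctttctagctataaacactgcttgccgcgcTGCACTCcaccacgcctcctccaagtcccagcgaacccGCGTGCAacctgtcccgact
MT1B: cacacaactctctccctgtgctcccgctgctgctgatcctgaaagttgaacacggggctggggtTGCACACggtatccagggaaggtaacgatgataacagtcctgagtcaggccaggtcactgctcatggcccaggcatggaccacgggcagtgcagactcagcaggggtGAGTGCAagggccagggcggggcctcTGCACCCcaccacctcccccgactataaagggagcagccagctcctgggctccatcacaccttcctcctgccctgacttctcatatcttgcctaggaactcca
MT1H: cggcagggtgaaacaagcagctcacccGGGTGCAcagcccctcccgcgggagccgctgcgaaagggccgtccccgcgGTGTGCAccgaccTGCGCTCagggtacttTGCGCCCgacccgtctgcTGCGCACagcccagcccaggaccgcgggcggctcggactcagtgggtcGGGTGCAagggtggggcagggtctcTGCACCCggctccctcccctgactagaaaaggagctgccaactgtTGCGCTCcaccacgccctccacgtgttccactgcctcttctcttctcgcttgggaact
MT1X: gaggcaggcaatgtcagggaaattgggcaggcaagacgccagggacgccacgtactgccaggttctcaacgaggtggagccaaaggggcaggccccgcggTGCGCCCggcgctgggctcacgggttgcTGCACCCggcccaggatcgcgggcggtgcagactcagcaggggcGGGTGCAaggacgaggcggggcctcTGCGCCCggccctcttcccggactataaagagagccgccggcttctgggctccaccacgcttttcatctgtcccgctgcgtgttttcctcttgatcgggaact
The window of MT2A held 8 matches, that of MT1H 8, that of MT1X 4 and that of MT1B 3. Of all 35116 promoters of the same length in the table, 29.6% held at least 1 match, 2.3% at least 3, 0.601% at least 4 and 0.0199% at least 8. MT2A and MT1H each had a match that ended at position -2, and MT2A also had 1 match after the start. MT1B, MT1H and MT1X shared a match on the same strand at positions -53 to -47, counted from the start, and MT2A had 1 at -54 to -48. A match describes the letters only and is no measurement of binding.

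EMC10, the product of the transgene, was read first as a check of the labels of clones and controls. Its log2 level was 11.57, 11.72 and 12.30 in clone 7 and 12.13, 12.18 and 11.75 in clone 8, against 9.20, 9.33 and 9.51 in mock and 11.13, 10.43 and 10.69 in wild-type cells. Every clone array lay above every control array, and the mock arrays lay below the wild-type arrays. Replicate 3 was the highest array of clone 7 and the lowest of clone 8. The difference of both clones against mock was log2 2.59 ± 0.18 (SE; limma, adjusted p = 7.82e-06), and that of mock against wild-type was log2 -1.40 (adjusted p = 0.00285). The array medians lay between 8.60 and 8.67. No depth applies to arrays, and their number limits the precision.

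Among the clones, 2 arrays went against their labels. Over all genes, each centred on its mean, the array labelled clone 7 replicate 3 correlated at -0.33 and -0.34 with the others of clone 7 but at 0.77 with clone 8 replicate 2. The array labelled clone 8 replicate 3 correlated at 0.09 and -0.40 with the others of clone 8 but at 0.64 with clone 7 replicate 1. Results on the members in the clones are given with and without both arrays, and those on other named genes with all 12 arrays only. Without both, 2416 genes had an adjusted p under 0.05 in both clones against mock (limma), beside 1175 with them. The labels were kept. Exchanging these 2 labels would leave the mean of both clones as it is and change the means of the single clones. Of astroglial markers, VIM, SOX9 and GJA1 averaged log2 13.60, 10.73 and 10.38 over the 12 arrays, while S100B (6.34), AQP4 (6.20) and SLC1A3 (6.91) lay below the lower quartile of every array (7.00 to 7.12).

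In both clones against mock, all 9 measured members had a positive log2 difference, between 0.14 and 0.41, and 6 of them, MT2A, MT1B, MT1F, MT1G, MT1H and MT1X, were higher at an adjusted p under 0.05 (limma, Benjamini-Hochberg over 18417 genes), with 0 lower. At that threshold 2.87% of all genes were higher and 3.51% lower. None of the 9 reached 1.5-fold together with the adjusted p, the limits under which a gene is called changed here, which 0.407% of all genes did upwards. In 7 of the 9, all but MT1M and MT3, each of the 6 clone arrays lay above each of the 3 mock arrays, as in 5.77% of all genes. The median difference of the members was log2 0.25, beside 0.01 over all genes, of which 53.7% had a positive difference. In cultured cells read in bulk, more cells with a transcript and more of it per cell cannot be told apart. The members were picked with earlier results of these data known, and near-identical copies may share probes, which was not tested here, so that single values are uncertain.

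**Figure D1:**
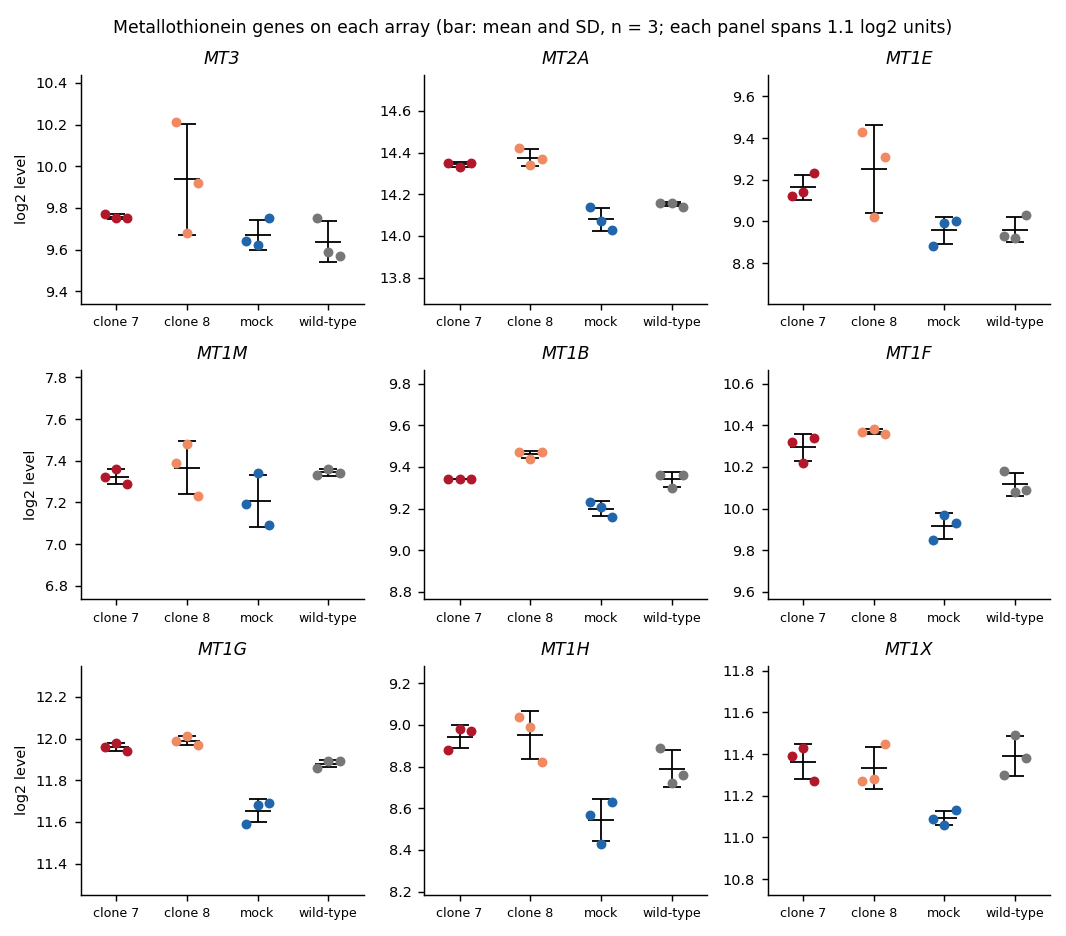
Log2 level (vertical axis) of the 9 measured metallothionein genes on each of the 12 arrays, by group from clone 7 to wild-type; points are arrays, and black bars are the mean and SD of 3. MT1F and MT1G show all 6 clone points above the mock points, with wild-type cells between, while MT1X shows wild-type cells level with the clones.

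MT2A encodes the main metallothionein of most tissues. It read 14.35, 14.33 and 14.35 in clone 7 and 14.42, 14.34 and 14.37 in clone 8, against 14.14, 14.07 and 14.03 in mock and 14.16, 14.16 and 14.14 in wild-type cells. All clone arrays lay above all control arrays, and mock and wild-type overlapped at 14.14. The difference of both clones against mock was log2 0.28 ± 0.05 (adjusted p = 0.00417), that is 1.21-fold. The levels lay close to the highest value on the arrays (14.73 to 14.85), and whether the upper end of the scale bears on the size of this difference was not tested. The other 2 probe sets listed as MT2A gave log2 0.22 ± 0.05 (adjusted p = 0.0163) and 0.25 ± 0.05 (adjusted p = 0.0086) against mock, where all 19460 probe sets with 1 symbol were tested. Whether these 2 read MT2A itself or a near-identical copy was not tested.

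MT1F and MT1H, isoforms of the MT1 group, had the largest differences of the 9. MT1F read 10.32, 10.22 and 10.34 in clone 7 and 10.37, 10.38 and 10.36 in clone 8, against 9.85, 9.97 and 9.93 in mock and 10.18, 10.08 and 10.09 in wild-type cells. The clones stood highest, wild-type cells next and mock lowest, with no overlap between these 3 sets of arrays. The difference against mock was log2 0.41 ± 0.05 (adjusted p = 0.000681), or 1.33-fold. MT1H read 8.88, 8.98 and 8.97 in clone 7 and 9.04, 8.99 and 8.82 in clone 8, against 8.57, 8.43 and 8.63 in mock and 8.89, 8.72 and 8.76 in wild-type cells. Mock again stood lowest, while the lowest clone arrays overlapped the highest wild-type array. The difference against mock was log2 0.40 ± 0.07 (adjusted p = 0.00417), or 1.32-fold.

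MT1G, another isoform of the MT1 group, read 11.96, 11.98 and 11.94 in clone 7 and 11.99, 12.01 and 11.97 in clone 8, against 11.59, 11.68 and 11.69 in mock and 11.86, 11.89 and 11.89 in wild-type cells. The clones, wild-type cells and mock formed 3 bands that did not overlap, in falling order. Against mock the clones differed by log2 0.32 ± 0.05 (adjusted p = 0.00168). MT1B read 9.34 on each array of clone 7 and 9.47, 9.44 and 9.47 in clone 8, against 9.23, 9.21 and 9.16 in mock and 9.36, 9.30 and 9.36 in wild-type cells. Clone 8 stood alone at the top, clone 7 and wild-type cells overlapped, and mock stood lowest. The difference against mock was log2 0.20 ± 0.04 (adjusted p = 0.0187).

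MT1X did not follow the same order. It read 11.39, 11.43 and 11.27 in clone 7 and 11.27, 11.28 and 11.45 in clone 8, against 11.09, 11.06 and 11.13 in mock and 11.30, 11.49 and 11.38 in wild-type cells. The clones overlapped wild-type cells, and mock lay below all of them. The difference against mock was log2 0.25 ± 0.06 (adjusted p = 0.0319). The 2 arrays with a doubtful label were the ones apart within each clone, at 11.27 in clone 7 and 11.45 in clone 8. In MT1B, by contrast, these arrays lay with the others of their labelled clone, at 9.34 and 9.47.

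The other 3 members missed the adjusted p. MT1E read 9.12, 9.14 and 9.23 in clone 7 and 9.43, 9.02 and 9.31 in clone 8, against 8.88, 8.99 and 9.00 in mock and 8.93, 8.92 and 9.03 in wild-type cells, a difference of log2 0.25 ± 0.08 against mock (adjusted p = 0.0912). Clone 8 replicate 1 was highest and clone 8 replicate 2 lowest of the clone arrays. MT3, the brain-enriched member, read 9.77, 9.75 and 9.75 in clone 7 and 10.21, 9.68 and 9.92 in clone 8, against 9.64, 9.62 and 9.75 in mock and 9.75, 9.59 and 9.57 in wild-type cells. Its spread lay in clone 8, with an SD of 0.27 over 3 arrays beside a median SD of 0.14 over all genes in that group, and the difference against mock was log2 0.17 ± 0.09 (adjusted p = 0.335). MT1M read 7.32, 7.36 and 7.29 in clone 7 and 7.39, 7.48 and 7.23 in clone 8, against 7.19, 7.34 and 7.09 in mock and 7.33, 7.36 and 7.34 in wild-type cells. These values lay close to the lower quartile of the arrays and all groups overlapped, with a difference of log2 0.14 ± 0.07 against mock (adjusted p = 0.275). With no detection call in the deposited values, MT1M could not be told from background.

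Without the 2 arrays of doubtful label, 6 members were again higher in both clones against mock at an adjusted p under 0.05, beside 5.47% of all genes, with differences of log2 0.18 to 0.43 over the 9. They were MT2A (log2 0.28, adjusted p = 0.00351), MT1B (0.20, 0.0175), MT1F (0.40, 0.000688), MT1G (0.33, 0.00115), MT1H (0.43, 0.00129) and MT1X (0.25, 0.0123). Leaving out single arrays, MT2A, MT1F, MT1G and MT1H kept an adjusted p under 0.05 each time. MT1B lost it without mock replicate 1 (adjusted p = 0.0662), 2 (0.0957) or 3 (0.111). MT1X lost it without mock replicate 1 (0.128), 2 (0.166) or 3 (0.0954), clone 7 replicate 1 (0.0726) or 2 (0.0733) or wild-type replicate 3 (0.0526), and MT1E gained it without clone 8 replicate 2 (log2 0.31, adjusted p = 0.00611).

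The clones were also taken one at a time. In clone 7 against mock, 4 members were higher at an adjusted p under 0.05, beside 1.82% of all genes: MT2A (log2 0.27 ± 0.05, adjusted p = 0.02), MT1F (0.37 ± 0.06, 0.00525), MT1G (0.31 ± 0.05, 0.00813) and MT1H (0.40 ± 0.08, 0.0164). In clone 8 against mock there were 5, beside 1.97% of all genes: MT2A (0.30 ± 0.05, adjusted p = 0.0101), MT1B (0.26 ± 0.05, 0.0152), MT1F (0.45 ± 0.06, 0.00164), MT1G (0.33 ± 0.05, 0.00453) and MT1H (0.41 ± 0.08, 0.0123). Both comparisons use the same 3 mock arrays. Without the 2 doubtful arrays clone 7 had 5, MT1X joining at log2 0.32 (adjusted p = 0.00771), and clone 8 had 5.

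Single arrays moved these counts. For clone 7, 2 members passed without mock replicate 1, without mock replicate 2 or without clone 7 replicate 2. Here MT2A was lost without mock replicate 2 (adjusted p = 0.101) or 3 (0.0989) or clone 7 replicate 1 (0.0956) or 2 (0.0811), MT1H without mock replicate 1 (0.0622) or 2 (0.0965) or clone 7 replicate 2 (0.0816), and MT1G without mock replicate 1 (0.0508), whereas MT1X was gained without clone 7 replicate 3 (0.0411) or clone 8 replicate 3 (0.037). For clone 8, 2 passed without mock replicate 2, 3 without mock replicate 3 and 8 without clone 8 replicate 2. MT1B was lost there without mock replicate 1 (0.0504), 2 (0.0737) or 3 (0.0749), MT2A without mock replicate 2 (0.062) or 3 (0.0563), and MT1H without mock replicate 2 (0.0746), while MT1E (log2 0.41, adjusted p = 0.00508), MT3 (0.39, 0.0159) and MT1X (0.26, 0.0416) were gained without clone 8 replicate 2. MT1F passed in both clones each time.

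Between clone 8 and clone 7 as labelled, 0 of the 9 members and 0% of all genes passed the adjusted p (limma). At an unadjusted p under 0.05, 1 member passed, MT1B (log2 0.12 ± 0.05, adjusted p = 0.62). Of all 18417 genes, 698 were higher and 630 lower in clone 8 at that unadjusted limit. The differences ran from log2 -0.03 in MT1X to 0.18 in MT3. The 95% intervals were -0.16 to 0.18 for MT1H, -0.09 to 0.15 for MT2A, -0.09 to 0.14 for MT1G and -0.06 to 0.41 for MT3, the widest of these 4. Without the 2 doubtful arrays 17.2% of all genes passed between the clones, and still 0 of the 9 members, with differences of log2 -0.14 (MT1X, adjusted p = 0.25) to 0.18 (MT3, adjusted p = 0.414). With 2 arrays left per clone, the precision of that comparison is low.

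Mock and wild-type cells, the 2 controls, differed in these genes too. In mock against wild-type, 1 of the 9 members, MT1G, was lower at an adjusted p under 0.05 (log2 -0.23 ± 0.05, adjusted p = 0.0436), beside 1.24% of all genes, and 0 were higher, beside 1% of all genes. In 5 members, MT1B, MT1F, MT1G, MT1H and MT1X, every mock array lay below every wild-type array, as in 13.3% of all genes. MT1X had the largest difference at log2 -0.30 ± 0.07 (adjusted p = 0.0563), followed by MT1H at -0.25 ± 0.08 (0.152), MT1G, MT1F at -0.20 ± 0.06 (0.131) and MT1B at -0.14 ± 0.05 (0.251). MT2A (log2 -0.07 ± 0.05), MT1M (-0.14 ± 0.08), MT1E (0.00 ± 0.09) and MT3 (0.03 ± 0.11) did not pass. For MT2A the other 2 probe sets differed more, by log2 -0.16 ± 0.05 (adjusted p = 0.187) and -0.17 ± 0.05 (0.162), and on both every mock array lay below every wild-type array. The median of the 9 was log2 -0.14, beside 0.02 over all genes.

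The result for MT1G was lost on leaving out wild-type replicate 1 (adjusted p = 0.11), 2 (0.166) or 3 (0.16), mock replicate 1 (0.208), 2 (0.148) or 3 (0.1), or clone 7 replicate 1 (0.0808), 2 (0.0751) or 3 (0.0504), the last of which enter through the shared estimate of spread alone. MT1X passed without clone 7 replicate 3 (0.0449), clone 8 replicate 2 (0.0468) or clone 8 replicate 3 (0.0303). Without both doubtful clone arrays, MT1G (adjusted p = 0.02) and MT1X (0.0103) passed together.

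Against wild-type cells, fewer members were higher in the clones. At an adjusted p under 0.05 there were 2 of 9, MT2A (log2 0.21 ± 0.05, adjusted p = 0.0141) and MT1F (0.22 ± 0.05, 0.0187), beside 4.63% of all genes, and 0 were lower. MT1E (0.25 ± 0.08, adjusted p = 0.0753), MT3 (0.20 ± 0.09, 0.193), MT1H (0.16 ± 0.07, 0.165), MT1G (0.09 ± 0.05, 0.223) and MT1B (0.06 ± 0.04, 0.415) did not pass. MT1M differed by 0.00 ± 0.07 and MT1X by -0.04 ± 0.06, with a 95% interval of -0.18 to 0.09 for MT1X. The other probe sets listed as MT2A gave log2 0.06 ± 0.05 (adjusted p = 0.461) and 0.08 ± 0.05 (0.312), so that for MT2A this comparison rests on the probe set used. The comparison shares the clone arrays with that against mock, and that of mock against wild-type shares both its groups with the other 2 comparisons.

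Single arrays again decided. MT2A was lost without wild-type replicate 2 (adjusted p = 0.0605) or 3 (0.0784) and MT1F without wild-type replicate 2 (0.102) or 3 (0.102), leaving 0 members in either case, and 4 members passed without clone 8 replicate 2, with MT1E (0.00482) and MT3 (0.0252) added. Without both doubtful arrays MT2A (log2 0.21, adjusted p = 0.0134) and MT1F (0.21, 0.0209) passed.

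**Figure D2:**
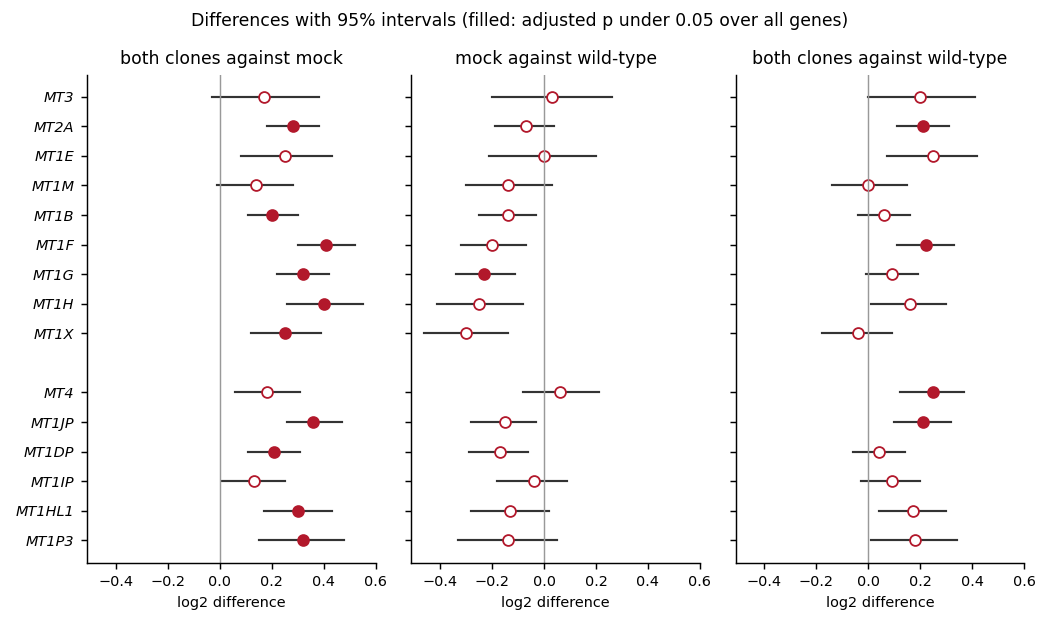
Log2 difference (horizontal axis) of the 9 measured members and, below the gap, 6 other metallothionein genes in 3 comparisons; points are estimates, lines their 95% intervals, and filled points have an adjusted p under 0.05 over all genes. All 15 points lie right of 0 against mock, most lie left of 0 in mock against wild-type, and 4 are filled against wild-type.

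The metallothioneins outside the 10 had differences between log2 0.13 and 0.36. Of the 6, 4 were higher in both clones against mock at an adjusted p under 0.05, beside 2.87% of all genes, with none past 1.5-fold. They were the pseudogenes MT1JP (log2 0.36 ± 0.05, adjusted p = 0.00133), MT1DP (0.21 ± 0.05, 0.0185) and MT1P3 (0.32 ± 0.07, 0.0266), and MT1HL1 (0.30 ± 0.06, 0.0124), an MT1H-like gene. MT4, known from stratified epithelia, differed by 0.18 ± 0.06 (0.0872) and MT1IP by 0.13 ± 0.05 (0.196). MT1JP read 8.80, 8.82 and 8.86 in clone 7 and 8.91, 8.80 and 8.94 in clone 8, against 8.46, 8.51 and 8.50 in mock and 8.69, 8.60 and 8.65 in wild-type cells, the same order of groups as in MT1F. MT1HL1 lies on chromosome 1 and MT1P3 on chromosome 20, away from the row on chromosome 16. Signal of the members in the probes of such copies cannot be told apart here from transcripts of the copies themselves.

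The row of metallothionein genes on chromosome 16 was set beside its measured neighbours. The 8 neighbours ran from GNAO1 to BBS2 on one side and from NUP93 to HERPUD1 on the other. Of these, 1 was higher in both clones against mock at an adjusted p under 0.05, beside 2.87% of all genes. Their differences ran from log2 -0.06 to 0.26 with a median of 0.04. The genes next to the row on either side were BBS2 (log2 0.10 ± 0.09, adjusted p = 0.598), a ciliary protein gene, and NUP93 (-0.06 ± 0.06, 0.643), a gene of the nuclear pore. The neighbour that passed was HERPUD1 (0.26 ± 0.05, adjusted p = 0.00544), an endoplasmic reticulum stress gene. Over a wider list of 20 measured flanking genes, 2 were higher, HERPUD1 and the noradrenaline transporter gene SLC6A2 (0.46 ± 0.06, adjusted p = 0.00168), and 1 was lower, CPNE2 (-0.24 ± 0.06, 0.0319). The largest value there, of the matrix protease MMP2, did not pass (0.49 ± 0.20, 0.19).

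**Figure D3:**
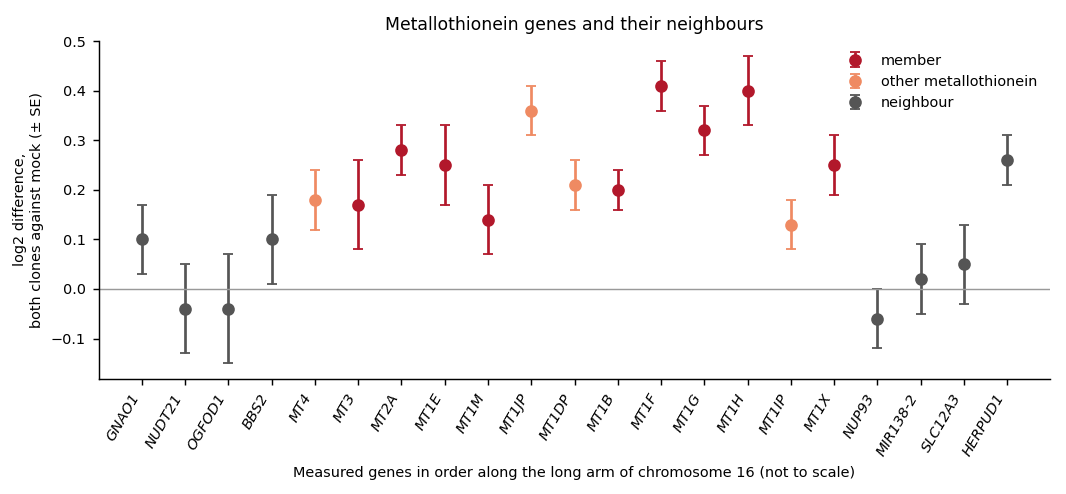
Log2 difference of both clones against mock (vertical axis, ± SE) for measured genes in their order along the long arm of chromosome 16, evenly spaced and not to scale; colours mark the members, the other metallothioneins and their neighbours. The metallothioneins lie between 0.13 and 0.41, the neighbours between -0.06 and 0.26.

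Genes that control metallothionein transcription or share its triggers were read from lists. MTF1, the zinc-sensing factor itself, differed by log2 -0.09 ± 0.07 in both clones against mock (adjusted p = 0.559). Its other known targets were SLC30A1, a zinc exporter of the plasma membrane (0.05 ± 0.06, 0.7), GCLC, a glutathione synthesis enzyme (-0.01 ± 0.06, 0.962), and SLC39A10, an importer that MTF1 represses (-0.26 ± 0.07, 0.06). None of the 4 passed the adjusted p in this comparison. Of 10 zinc exporters (SLC30 genes) 0 passed in limma, with 0 at an unadjusted p under 0.05, and values between log2 -0.10 in SLC30A7 and 0.11 in SLC30A6. Of 14 zinc importers (SLC39 genes) 0 passed in limma and 6 had an unadjusted p under 0.05, 2 higher and 4 lower. Of all 18417 genes, 1599 were higher and 2078 lower at that unadjusted limit. SLC39A10 and SLC39A8 (-0.26 ± 0.09, adjusted p = 0.109) were the importers farthest from 0. The medians were log2 -0.05 for MTF1 and its targets, 0.00 for exporters and -0.01 for importers.

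Of 11 copper genes 1 was higher, the copper pump gene ATP7B (log2 0.24 ± 0.06, adjusted p = 0.0274), while SCO1, of copper delivery in mitochondria, read -0.27 ± 0.12 (0.241). Of 13 targets of NRF2, the factor of the oxidant response, 0 were higher and 1 was lower, glutathione reductase GSR (-0.28 ± 0.06, 0.0151); the cystine carrier SLC7A11 (-0.44 ± 0.16, 0.149) and NQO1 (-0.32 ± 0.28, 0.582) did not pass. Of 10 heat shock and metal stress genes 0 were higher and 2 lower, the chaperone genes CRYAB (-0.43 ± 0.11, 0.035) and HSPE1 (-0.27 ± 0.05, 0.00782).

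Of 9 glucocorticoid response genes 1 was higher, the phosphatase gene DUSP1 (log2 0.31 ± 0.07, adjusted p = 0.0219), and 1 lower, the receptor gene NR3C1 (-0.20 ± 0.05, 0.0448), and ERRFI1 read -0.40 ± 0.16 (0.185). Of 11 hypoxia genes 1 was higher, BNIP3, of mitochondrial turnover (0.44 ± 0.08, 0.0074), and 2 lower, NDRG1 (-0.25 ± 0.06, 0.0287) and the angiogenic factor VEGFA (-0.20 ± 0.05, 0.0309); ANKRD37 read 0.26 ± 0.09 (0.11). The list for the IL-6 and STAT3 response also holds receptors, IL6R, LIFR and OSMR among them, and so does not read the response alone. Of its 10 genes 1 was lower, IL6R (-0.22 ± 0.05, 0.0242), and LIFR read -0.35 ± 0.17 (0.293). None of the genes on these lists passed 1.5-fold and the adjusted p together. At the adjusted p alone, 2.87% of all genes were higher and 3.51% lower in both clones against mock. The list medians ran from log2 -0.12 for NRF2 targets to 0.10 for copper genes, beside 0.25 for the 9 metallothioneins.

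**Figure D4:**
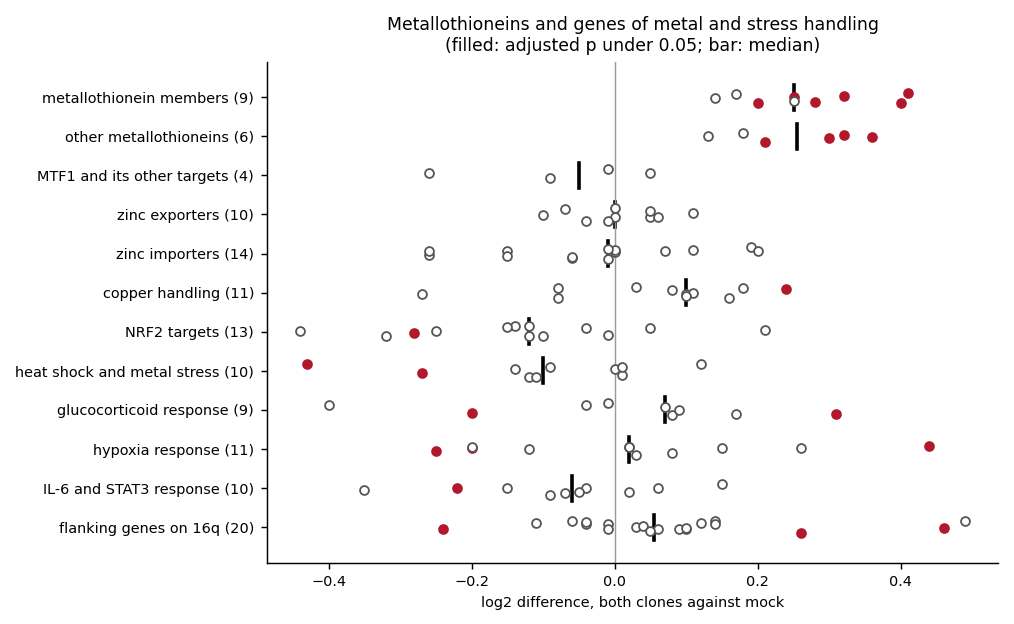
Log2 difference of both clones against mock (horizontal axis) for the genes of each list, 1 point a gene, with the number measured in brackets; filled points have an adjusted p under 0.05 over all genes, and bars are list medians. All points of both metallothionein rows lie right of 0, with medians of 0.25, and the other lists hold points on both sides of 0.

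In mock against wild-type, 2 of these lists had higher medians than the others. All 10 genes of the IL-6 and STAT3 list, receptors included, had a positive difference, with a median of log2 0.33. In 9 of them every mock array lay above every wild-type array. Of 13 NRF2 targets 12 had a positive difference, with a median of 0.21, and in 11 the arrays did not overlap in that direction. Zinc exporters had 8 of 10 above 0 (median log2 0.09), zinc importers 9 of 14 (0.07) and MTF1 and its targets 3 of 4 (0.14). Heat shock and metal stress genes had 7 of 10 above 0 (0.02). Over all genes 56.9% had a positive difference and 15.6% had every mock array above. At the adjusted p 1% of all genes were higher in mock and 1.24% lower. At the adjusted p 3 of the 10 were higher in mock, LIFR, the receptor of leukaemia inhibitory factor (1.39 ± 0.20, adjusted p = 0.00259), OSMR, the oncostatin M receptor (0.53 ± 0.09, 0.00907), and IL6R (0.35 ± 0.06, 0.00916), and 2 of the 13 were, GCLM, a subunit of the glutathione synthesis enzyme (0.64 ± 0.11, 0.0109), and GSR (0.29 ± 0.07, 0.0459). LIFR and GCLM passed 1.5-fold as well, as 0.299% of all genes did upwards. Of 11 hypoxia genes VEGFA was higher (0.52 ± 0.06, 0.000384), and ADM (-0.47 ± 0.06, 0.000782) and BNIP3 (-0.46 ± 0.09, 0.0213) were lower. Of the zinc and copper genes, at the adjusted p alone, the importer SLC39A8 (0.56 ± 0.10, 0.0132) and the copper transporter gene SLC31A2 (0.33 ± 0.07, 0.0302) were higher in mock. The exporter SLC30A1 read 0.19 ± 0.07 (0.276). MTF1 and its targets had 0 of 4 past the adjusted p in limma. At an unadjusted p under 0.05, 2 of them were higher in mock, as were 1142 of all 18417 genes.

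In both clones against wild-type the IL-6 and STAT3 genes again all had a positive difference, with a median of log2 0.25. Of all 18417 genes, 10577 had a positive difference there, with a median of log2 0.03. At the adjusted p 5 of the 10 were higher, beside 4.63% of all genes. Of these, LIFR (1.04 ± 0.17, adjusted p = 0.00255) and the transcription factor gene CEBPB (0.64 ± 0.15, 0.0179) passed both limits, as 0.907% of all genes did upwards. The NRF2 target SLC7A11 was lower past both limits (-0.62 ± 0.16, 0.0338), and so was CRYAB of the heat shock list (-0.87 ± 0.11, 0.000418). Both comparisons share the wild-type arrays. How these lists bear on the metallothionein values was not tested.

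Markers of other cell types were read beside the metallothioneins. The mean log2 level of 5 fibroblast markers was 9.39 to 10.19 in the clones, against 10.06 to 10.12 in mock and 10.58 to 10.71 in wild-type cells, with DCN at a mean of 5.96 over the 12 arrays. COL1A1, a chain of type I collagen, was lower in mock against wild-type (log2 -0.72 ± 0.10, adjusted p = 0.00188). In both clones against wild-type 3 of the 5 were lower past both limits, as 0.673% of all genes were: COL1A1 (-0.73 ± 0.09, 0.000249) and the collagen genes COL1A2 (-1.61 ± 0.45, 0.0411) and COL3A1 (-1.46 ± 0.29, 0.00797). In both clones against mock 0 of the 5 passed in limma, and their median was log2 -0.19. At an unadjusted p under 0.05, 1 of them was lower, as were 2078 of all 18417 genes. The 9 astroglial markers averaged 8.78 to 8.98 in the clones, 8.94 to 8.99 in mock and 8.90 to 8.99 in wild-type cells, and of them NES, nestin of neural progenitors, was lower in the clones against mock (-0.73 ± 0.06, adjusted p = 5.89e-05) and against wild-type (-1.17 ± 0.06, 9.75e-07), and in mock against wild-type (-0.44 ± 0.07, 0.00723). Neuronal markers (4) averaged 8.06 to 8.33 in the clones, 8.06 to 8.13 in mock and 8.22 to 8.34 in wild-type cells. Among them STMN2, of neuronal growth, was higher in both clones against mock (0.30 ± 0.06, adjusted p = 0.0116), with every clone array above every mock array. It was lower in mock against wild-type (-0.79 ± 0.07, 6.6e-05) and in both clones against wild-type (-0.49 ± 0.06, 0.000366). RBFOX3 (0.00 ± 0.07, adjusted p = 0.982), SYP (-0.04 ± 0.06, 0.748) and SNAP25 (0.05 ± 0.10, 0.827) did not pass in both clones against mock. The 4 epithelial markers averaged 10.56 to 10.65 in the clones, 10.56 to 10.64 in mock and 10.43 to 10.46 in wild-type cells, the 4 endothelial ones 7.35 to 7.65, 7.43 to 7.49 and 7.39 to 7.52 in that order, and the 4 leukocyte ones 8.36 to 8.60, 8.43 to 8.50 and 8.55 to 8.65. Of these, the keratin gene KRT8 was higher in mock against wild-type (0.48 ± 0.05, adjusted p = 0.000416). PTPRC of leukocytes was lower in both clones against wild-type past both limits (-0.63 ± 0.16, adjusted p = 0.0277). PTPRC averaged 7.34 over the 12 arrays, close to their lower quartile. With no detection call, it could not be told from background. The part of these markers in the metallothionein values was not tested.

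The members were compared with each other and with the rest of the genes over the 12 arrays. The Pearson correlation of each member with the mean of the other 8 was highest for MT1F (0.942), MT1G (0.921), MT2A (0.913), MT1B (0.89) and MT1H (0.869), lower for MT1E (0.732), and lowest for MT3 (0.576), MT1X (0.536) and MT1M (0.469). The mean deviation of the members from their own means was 0.07 on each clone 7 array and 0.08 to 0.19 in clone 8, against -0.19 to -0.16 in mock and -0.04 to -0.01 in wild-type cells. Among 9200 other genes above the median level, the 5 most like this mean were EMC10 (r = 0.955), PCED1A (0.94), TMEM147 (0.934), an endoplasmic reticulum membrane protein, JAM2 (0.925), a junctional adhesion molecule, and COL6A1 (0.925), a chain of type VI collagen. These are descriptions over 12 arrays of 4 lines, whose points share the line and its selection.

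These 5 genes shared the order of the groups, which follows largely from their choice by correlation with the member mean over the same arrays. TMEM147 read 12.92, 12.91 and 12.92 in clone 7 and 12.91, 12.87 and 12.95 in clone 8, against 12.64, 12.64 and 12.56 in mock and 12.76, 12.80 and 12.80 in wild-type cells. JAM2 read 10.88, 10.92 and 10.75 in clone 7 and 10.65, 10.70 and 10.93 in clone 8, against 9.36, 9.35 and 9.26 in mock and 10.24, 10.23 and 10.36 in wild-type cells. In both, as in EMC10, the clones stood highest and mock lowest with no overlap.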

How the data were processed

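The deposited table held log2 expression values of 33297 probe sets on 12 arrays, already summarized and normalized by the authors; the submitters' processing notes name Partek, the study's methods give dChip or Partek without saying which was used for these arrays, and for the summary and normalization steps no more is given in the sources used here. Limits of 1.5-fold and 0.05 are those the study's methods give for A172 in its iReport analysis. Its Ingenuity Pathway Analysis of A172 used a lower fold limit with a stricter p limit, which was not applied here. The values were taken as deposited, with no further normalization. Probe sets were named from the platform annotation, in which 19460 had 1 gene symbol, 1754 several and 12083 none listed, and by Entrez number 19429 were found in a RefSeq gene table (GRCh38.p14); 1 probe set per gene, with the highest mean, left 18417 genes. A linear model with 1 mean per group was fitted to all 12 arrays with limma 3.58.1 (lmFit, eBayes) in R 4.3.3, and p-values were adjusted by Benjamini-Hochberg over the genes of each of 6 contrasts, the mean of both clones giving each clone equal weight. Errors on differences are standard errors. The procedure was tested on simulated data, where recovery was required only of changes larger than any seen in the members.

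All metallothionein symbols were named. On each gene list, those past both limits, up to 4, or else the 2 farthest from 0, were named, together with genes that passed the adjusted p alone in both clones against mock or in mock against wild-type, which were chosen after their values were seen, and the 5 genes most correlated with the member mean. Members and lists were chosen with earlier results of these data known. Alternatives were another normalization, a filter on dim genes, every probe set, other variance settings, array weights, fewer groups, a replicate block and leaving out arrays. Replicate numbers did not pair the arrays.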

Additional observations from a re-analysis of the deposited data

How the results depend on the processing

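No alternative took a member past 1.5-fold and the adjusted p together. Counts at the adjusted p alone ran as follows when single arrays were left out: 4 to 7 (6 with all arrays) for both clones against mock, 2 to 5 (4) for clone 7 against mock, 2 to 8 (5) for clone 8 against mock, 0 to 2 (1) for mock against wild-type, 0 to 4 (2) for both clones against wild-type, and 0 between the clones. With array weights the counts were 8 for both clones against mock, 7 for clone 7 against mock, 5 for mock against wild-type and 4 for both clones against wild-type. Using the groups compared alone gave 4 for both clones against mock, 1 for clone 8 against mock, 4 for mock against wild-type and 1 for both clones against wild-type. Mock against wild-type also gave 0 with centred medians, 2 without dim genes, 2 with a trended robust prior, and 2 without clone 7 replicate 3 and clone 8 replicate 3, an alternative added after seeing the data.

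A direction turned only near 0: MT1E in mock against wild-type was 0.02 after quantile normalization, 0.01 with centred medians, and 0.03 and 0.04 without wild-type replicate 3 and mock replicate 1; leaving out single arrays MT3 there was -0.01 to 0.09 (reversed or at 0.00 without mock replicate 3 and wild-type replicate 3); MT1M in both clones against wild-type was -0.01 after either scaling and -0.03 to 0.05 with arrays left out; MT1X there was -0.09 to 0.01 without single arrays (above 0 without wild-type replicate 2). MT1M has no value where dim genes were removed. Same-numbered arrays of different groups had correlations of -0.83 to 0.45 (median -0.04), others -0.55 to 0.73 (0.01), so the numbers are names only; with the replicate block the count was 0 in mock against wild-type and 5 in both clones against mock, where MT1X had an adjusted p of 0.0652, and no other call of a member changed. Over all genes, between 367 and 3545 passed the adjusted p in both clones against mock (1175 as reported), and between the clones 0 to 3166 (0 as reported). The cause of these changes was not tested. Precision is limited by 3 arrays per line, and by signal for MT1M.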
